A study of Homo sapiens with 16 samples.

Results

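The kinesin motor family was described in NCI-H1944 cells, an established human lung adenocarcinoma line, through the protein coding genes whose symbol is KIF followed by a number. A gene was kept when its mean over the 16 libraries was at least 0.5 CPM, the usual count of reads scaled to a common library total. Of 60612 genes in the deposited count table, 39 were protein coding KIF genes and 30 of these reached that level. The 30 members were sorted by textbook function into 11 mitotic kinesins, 12 transport kinesins and 7 others. This sorting was made with earlier results of these data known. KIF2A, which acts both at spindle poles and in interphase, was placed among the others. KIF1A at a mean of 0.41 CPM and KIF17 at 0.404 CPM lay just below the limit, and KIF5A at 0.634 CPM and KIF26B at 0.798 CPM just above it. All 30 members passed the filter on low counts.

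The RNA-seq experiment asked how STING, an adaptor of cytosolic DNA sensing, and MAVS, an adaptor of cytosolic RNA sensing, shape gene expression after chromosome missegregation. The lines were STINGsg, labelled as STING knockout, MAVSsg, labelled as MAVS knockout, DKO, labelled as knockout of both, and SCR, labelled WT. Cells of each line received the MPS1 kinase inhibitor BAY-1217389 (MPS1i) at 100 nM or the solvent DMSO for 48 h, and were cultured for a further 24 h after removal of the drug. Each of the 8 groups held 2 libraries of poly(A) RNA. The labels do not say whether the 2 libraries came from separate cultures, and the p-values rest on the spread of 2 libraries a group, part or all of which may be technical. They also do not say whether a knockout line was a clone or a pool, and each line stands for its genotype alone, so line and genotype cannot be told apart.

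Kinesins are motors that use ATP to move along microtubules or to take them apart. Mitotic kinesins build the spindle, align and separate chromosomes and complete cytokinesis, and in proliferating cells their transcripts peak in G2 and M phase. Transport kinesins carry vesicles, endosomes, mitochondria and ciliary cargo at all stages of the cell cycle. MPS1, encoded by TTK, is a kinase of the spindle assembly checkpoint that delays anaphase until all chromosomes are attached, and its inhibition lets chromosomes missegregate.

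The libraries held 19893784 to 49769938 counts, and CPM values below refer to library totals scaled by the trimmed mean of M values (TMM). STING1 was at 3.74 ± 0.0573 CPM in STINGsg cells and at 4.86 ± 0.0461 CPM in DKO cells, against 8.27 ± 0.0317 CPM in SCR cells (DMSO, SD, n = 2 each). MAVS transcript was at 195 ± 0.89 CPM in MAVSsg cells and 215 ± 9.83 CPM in DKO cells, against 186 ± 4.28 CPM in SCR cells under DMSO, so the transcript level did not check the MAVS labels, and the names MAVSsg and DKO stand for libraries labelled so. The epithelial markers KRT8, KRT18 and CDH1 were present (lowest library 1474, 810 and 36.7 CPM) and EPCAM was low (2.18 to 5.69 CPM). KRT19 and the lung markers NKX2-1 and SFTPB were at or near 0, with at least 11 of 16 libraries at 0. Of the immune and stromal markers reported, COL1A1 reached 8.04 CPM, PECAM1 2.68 CPM and CD14 1.10 CPM, and PTPRC, CD3E, COL3A1, PDGFRB and VWF were at most at 0.378 CPM.

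Upstream sequence is shown for 4 mitotic and 2 transport kinesins. Letters known from promoters of genes that peak in G2 and M phase were searched in the 25 members with a RefSeq promoter. These were the cell cycle homology region, TTTGAA or TTCGAA, bound by the DREAM and MuvB complexes, and CCAAT, bound by NF-Y. Each line gives the 120 bases before the RefSeq start of transcription in GRCh38.p14, read on the gene's own strand. Capitals mark the searched letters; ATTGG is CCAAT read on the opposite strand.
KIF18A, a plus-end motor that dampens chromosome oscillations (chr11:28108157-28108276, minus strand): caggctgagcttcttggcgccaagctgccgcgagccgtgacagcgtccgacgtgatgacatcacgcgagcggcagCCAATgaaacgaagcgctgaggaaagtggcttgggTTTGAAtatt
KIF4A, a chromosome-bound motor of the anaphase midzone (chrX:70289984-70290103, plus strand): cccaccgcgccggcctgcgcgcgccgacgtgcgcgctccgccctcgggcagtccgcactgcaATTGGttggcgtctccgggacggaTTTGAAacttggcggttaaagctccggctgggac
KIF14, a motor of cytokinesis (chr1:200620752-200620871, minus strand): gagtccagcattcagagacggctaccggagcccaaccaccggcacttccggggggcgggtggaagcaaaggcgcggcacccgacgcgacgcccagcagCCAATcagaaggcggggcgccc
KIF18B, a motor that limits astral microtubule length (chr17:44947774-44947893, minus strand): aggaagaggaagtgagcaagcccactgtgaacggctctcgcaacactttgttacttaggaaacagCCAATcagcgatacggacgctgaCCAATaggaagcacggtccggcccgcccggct
KIF5B, the widely expressed conventional kinesin heavy chain (chr10:32056426-32056545, minus strand): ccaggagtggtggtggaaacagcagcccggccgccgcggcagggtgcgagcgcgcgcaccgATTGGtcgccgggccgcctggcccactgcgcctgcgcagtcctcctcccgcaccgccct
KIF1C, a carrier of dense core vesicles and integrins (chr17:4997830-4997949, plus strand): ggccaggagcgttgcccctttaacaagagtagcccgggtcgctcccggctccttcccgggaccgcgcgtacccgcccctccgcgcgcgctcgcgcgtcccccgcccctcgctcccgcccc

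In KIF18A both sets of letters lay close to the start, CCAAT from position -45 and TTTGAA from position -10, and in KIF4A they began at -58 and -34. In KIF14 and KIF18B the CCAAT letters lay upstream, as shown, and the TTTGAA letters began after the start, at positions 2 and 3. The KIF5B window held TTTGAA at -140, farther from the start than the bases shown, and the KIF1C window held neither set. The search covered the whole window of 300 bases (250 before to 50 after the start, both strands), and 25 of the 30 members matched a RefSeq promoter. The transport kinesins KIF21B, KIF13B and KIF5A and the others KIF27 and KIF26B had no match and were not searched. TTTGAA or TTCGAA occurred in 9 of 11 mitotic kinesins (81.8%), in 1 of 9 transport kinesins (11.1%) and in 1 of 5 others (20%), the centriole motor KIF24. The same letters occurred in 16.6% of 27305 promoters. CCAAT occurred in 9 of 11 mitotic (81.8%), 3 of 9 transport (33.3%) and 1 of 5 other kinesins (20%), against 35.7% of all promoters. The letters TTTGAA and TTCGAA were not in the windows of KIF20A and KIF2C, and CCAAT was not in those of KIF15 and KIF2C. These matches describe letters, not bound sites, and an absent match says only that the letters are not in the window.

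**Figure D1:**
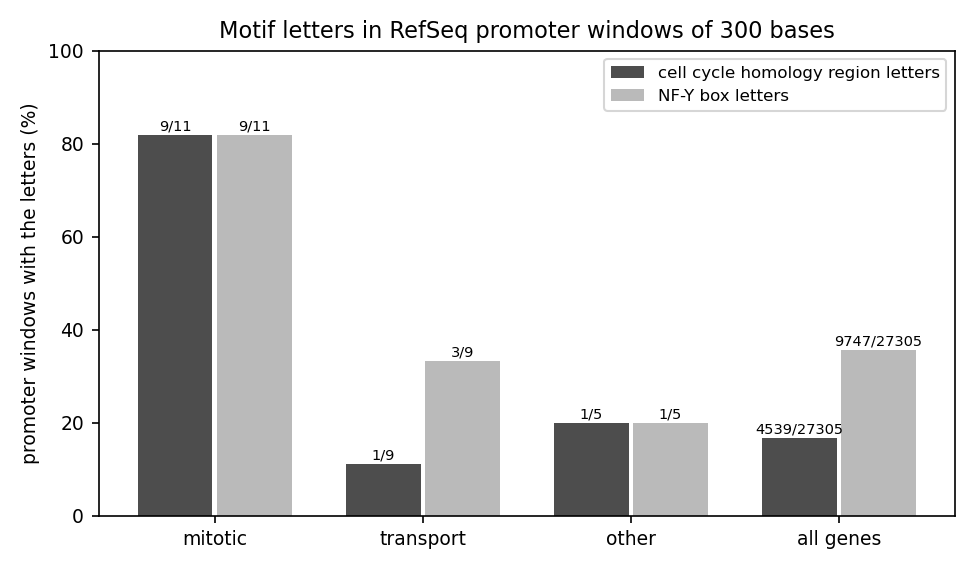
Share of RefSeq promoter windows of 300 bases (vertical axis, percent) that hold the letters of the cell cycle homology region (dark bars) or of the NF-Y box (light bars), in mitotic, transport and other kinesins and in all genes of the table; the numbers above the bars are windows with the letters over windows searched. Both bars stand at 81.8% for the mitotic kinesins, against 16.6% and 35.7% for all genes.

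Kinesin levels were compared between genes per kilobase of merged exon (GENCODE 29). KIF5B was the most abundant member at 102 CPM per kb, ahead of the microtubule depolymerase KIF2A at 31.2, the spindle pole motor KIF11 at 27.2 and the kinesin-II subunit KIF3B at 21.1 CPM per kb. Mitotic members lay between 3.37 (KIF15) and 27.2 CPM per kb, with a median of 9.72. Transport members spanned a wider range, 0.101 (KIF5A, a heavy chain of neurons) to 102 CPM per kb, with a median of 4.37. The cilium and atypical kinesins KIF9, KIF7, KIF26A and KIF26B all lay under 0.6 CPM per kb.

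The first comparison asked what the pulse of MPS1i did to each class. All 11 mitotic kinesins fell after MPS1i in all 4 lines. Of the 12 transport kinesins, 3 were called in STINGsg, 6 in MAVSsg, 4 in DKO and 8 in SCR cells. Called means an adjusted p under 0.05 in edgeR's quasi-likelihood test (Benjamini-Hochberg adjustment over 17950 tested genes), and log2 fold changes are MPS1i over DMSO. Among all tested genes, 13.9% were called lower and 15.5% higher in STINGsg cells, 16.3% lower and 17.1% higher in MAVSsg cells, 8.22% lower and 6.53% higher in DKO cells, and 24% lower and 26% higher in SCR cells. The median log2 fold change of the mitotic kinesins was -0.88 in STINGsg, -0.69 in MAVSsg, -0.87 in DKO and -0.94 in SCR cells, where the medians of all tested genes lay between 0.00 and 0.03. In each mitotic gene and each line, both MPS1i libraries were below both DMSO libraries. With 2 libraries a group such separation is common, and its share over all genes was not counted. In STINGsg cells the libraries were also separate in 7 transport kinesins that were lower and 5 that were higher. The same held there for 3 others that were lower and 4 that were higher. None of these mitotic calls was lost under any scaling, filter, tool or left-out library tried.

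The transport kinesins gave 2 lower and 1 higher of 12 in STINGsg cells, 5 lower and 1 higher in MAVSsg, 4 lower and none higher in DKO, and 7 lower and 1 higher in SCR cells. Their median log2 fold changes were -0.08 in STINGsg, -0.14 in MAVSsg, -0.17 in DKO and -0.28 in SCR cells. Among the 7 others, 1 was lower and 1 higher in STINGsg, 1 lower and 1 higher in MAVSsg, 1 lower and none higher in DKO, and 2 lower and 2 higher in SCR cells. Outside the mitotic class, the mitochondrial carrier KIF1B and the centriole motor KIF24 were called lower in all 4 lines. KIF21A, KIF3A, KIF5A, KIF2A and KIF9 were called in none.

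**Figure D2:**
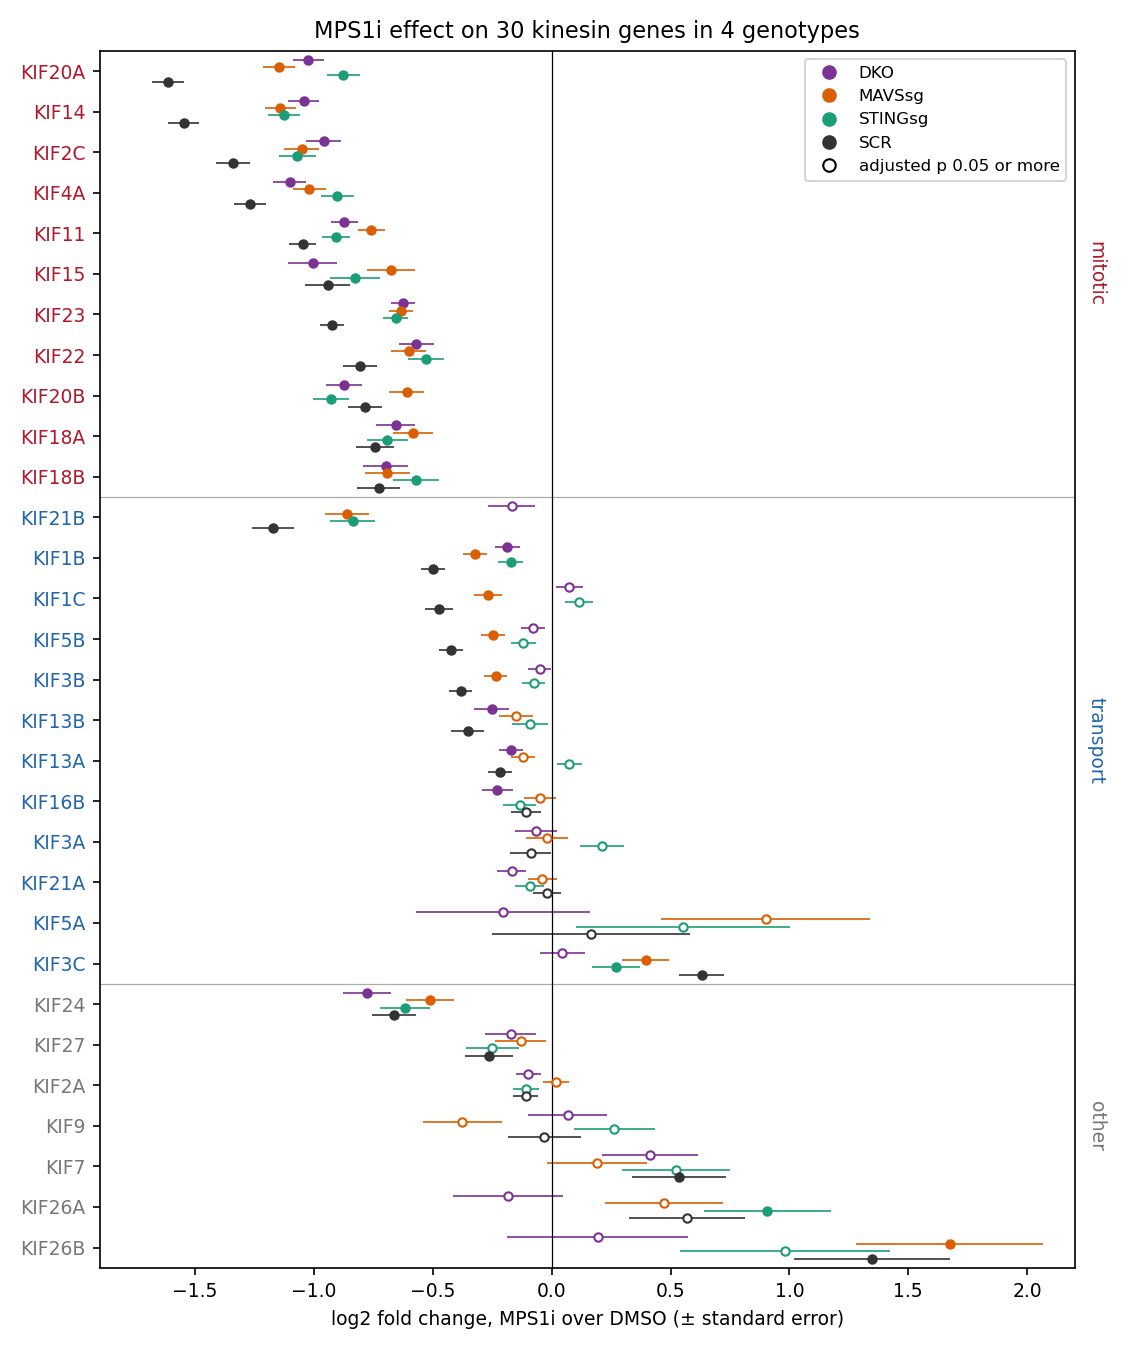
Log2 fold change of MPS1i over DMSO (horizontal axis, bars ± standard error of the fit) for the 30 kinesin genes by class, in DKO (purple), MAVSsg (orange), STINGsg (green) and SCR cells (black), each from 2 libraries a group; open circles have an adjusted p of 0.05 or more. All mitotic values lie left of 0 and are filled, and the transport values lie between -1.17 and 0.90 with most near 0.

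The class contrast can be read per library. The geometric mean over the 11 mitotic kinesins was 34.4 to 35.5 CPM after MPS1i and 61.6 to 62.2 CPM under DMSO in STINGsg cells, and 36.2 to 37.2 CPM after MPS1i and 63.1 to 65.7 CPM under DMSO in MAVSsg cells. In DKO cells it was 38.5 to 39.1 CPM after MPS1i and 68.4 to 72.1 CPM under DMSO, and in SCR cells 32.7 to 33.4 CPM after MPS1i and 68.9 to 69.9 CPM under DMSO. Every MPS1i library therefore lay below every DMSO library across the lines. The transport mean was 40.9 to 42.5 CPM after MPS1i and 42.2 to 42.7 CPM under DMSO in STINGsg cells, where the groups overlapped. It was 40.6 to 40.9 CPM after MPS1i and 42.6 to 43.4 CPM under DMSO in MAVSsg cells, and 43.7 to 44.1 CPM after MPS1i and 47.4 to 48.0 CPM under DMSO in DKO cells. In SCR cells it was 35.0 to 37.7 CPM after MPS1i and 42.3 to 43.9 CPM under DMSO, so the MPS1i libraries lay below the DMSO libraries in MAVSsg, DKO and SCR cells. The ratio of the mitotic to the transport mean was 0.835 to 0.957 in the 8 MPS1i libraries and 1.44 to 1.65 in the 8 DMSO libraries. In bulk RNA, fewer cells in G2 and M phase and less RNA per cell cannot be told apart. All 13 G2 and M phase markers fell in every line, and their summed level was 1174 to 1376 CPM in MPS1i libraries and 2229 to 2692 CPM in DMSO libraries; their part in the kinesin result was not tested.

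**Figure D3:**
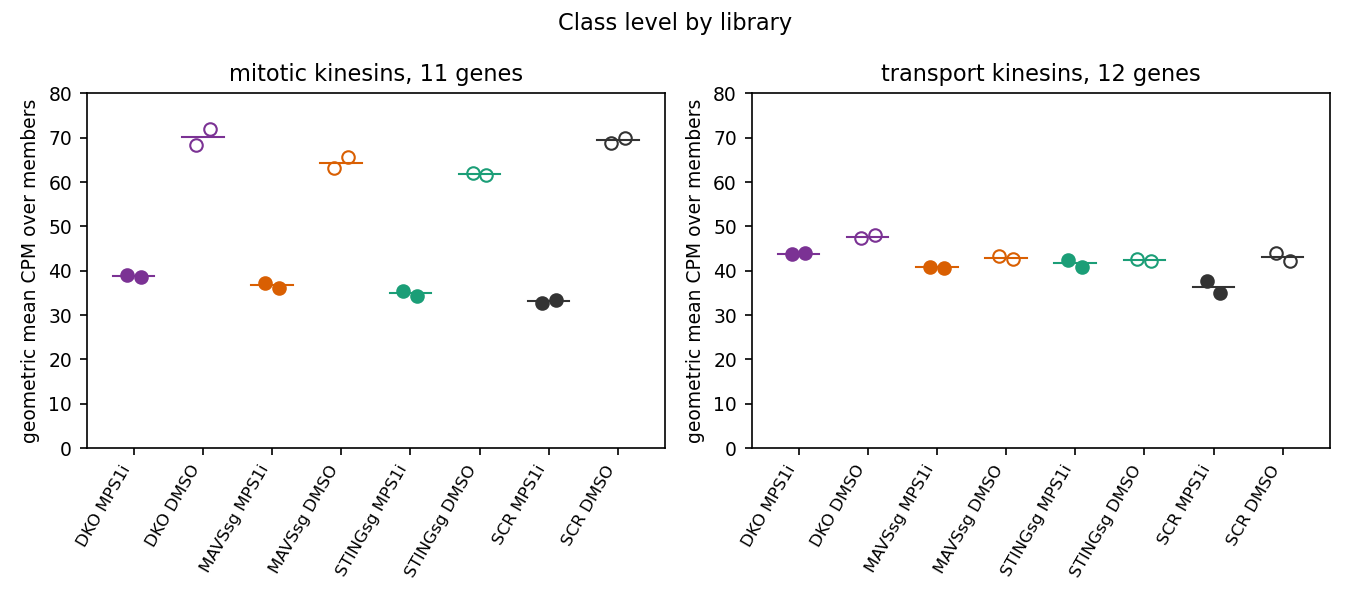
Geometric mean CPM over the 11 mitotic (left) and 12 transport kinesins (right) in each library (circles; filled, MPS1i; open, DMSO) with the mean of each group of 2 libraries (line). Mitotic means lie between 32.7 and 39.1 CPM in MPS1i libraries and between 61.6 and 72.1 CPM in DMSO libraries, and transport means between 35.0 and 48.0 CPM throughout.

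Values in every library follow for the mitotic kinesins with the smallest adjusted p in SCR cells and for KIF11 and KIF23. The latter were picked for a called difference from SCR cells. Both ways of picking favour genes with a large fall in SCR cells. KIF20A, which carries the chromosomal passenger complex to the anaphase midzone, had 24.6 and 24.2 CPM after MPS1i and 44.4 and 45.1 CPM under DMSO in STINGsg cells. It had 21.5 and 22.5 CPM after MPS1i and 48.5 and 49.3 CPM under DMSO in MAVSsg cells. In DKO cells KIF20A had 32.3 and 29.5 CPM after MPS1i and 65.6 and 60.5 CPM under DMSO, and in SCR cells 17.2 and 16.4 CPM after MPS1i and 51.5 and 51.3 CPM under DMSO. No MPS1i library reached a DMSO library, and the SCR libraries after MPS1i were the lowest of all 16. The log2 fold change of KIF20A was -0.88 ± 0.069 in STINGsg, -1.15 ± 0.067 in MAVSsg, -1.02 ± 0.065 in DKO and -1.61 ± 0.066 in SCR cells (± standard error; adjusted p from edgeR 2.3e-10, 4.6e-13, 3.3e-11 and 1.2e-16 in that order).

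KIF14, which works with citron kinase in cytokinesis, had 67.1 and 65.1 CPM after MPS1i and 138 and 150 CPM under DMSO in STINGsg cells, and 67.0 and 65.1 CPM after MPS1i and 142 and 149 CPM under DMSO in MAVSsg cells. In DKO cells it had 77.3 and 74.2 CPM after MPS1i and 144 and 168 CPM under DMSO, and in SCR cells 53.5 and 59.8 CPM after MPS1i and 162 and 170 CPM under DMSO. Its log2 fold change was -1.12 in STINGsg, -1.14 in MAVSsg, -1.04 in DKO and -1.55 in SCR cells. The SCR libraries were the lowest after MPS1i.

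KIF4A, which shapes the midzone together with PRC1, had 29.1 and 29.99 CPM after MPS1i and 55.2 and 55.1 CPM under DMSO in STINGsg cells, and 29.4 and 28.9 CPM after MPS1i and 59.1 and 59.0 CPM under DMSO in MAVSsg cells. It had 29.6 and 27.8 CPM after MPS1i and 56.3 and 66.8 CPM under DMSO in DKO cells, and 26.4 and 25.9 CPM after MPS1i and 63.0 CPM in both DMSO libraries of SCR cells. The SCR libraries after MPS1i were the lowest, and the log2 fold changes were -0.90 (STINGsg), -1.02 (MAVSsg), -1.10 (DKO) and -1.27 (SCR). KIF4B, a near-identical copy of KIF4A with a mean of 0.123 CPM, may share reads with it.

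KIF2C, the depolymerase MCAK that corrects faulty kinetochore attachments, had 19.8 and 19.5 CPM after MPS1i and 39.3 and 43.4 CPM under DMSO in STINGsg cells, and 20.6 and 19.95 CPM after MPS1i and 40.9 and 43.3 CPM under DMSO in MAVSsg cells. In DKO cells it had 24.2 and 22.7 CPM after MPS1i and 45.9 and 45.6 CPM under DMSO, and in SCR cells 16.7 and 19.0 CPM after MPS1i and 45.2 and 45.7 CPM under DMSO. The fall was -1.07 in STINGsg, -1.05 in MAVSsg, -0.96 in DKO and -1.34 in SCR cells on the log2 scale. Its window held neither set of letters, and its fall was among the 4 largest of the class in SCR cells.

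KIF11, the motor that pushes spindle poles apart and the target of several antimitotic drugs, had 89.1 and 81.3 CPM after MPS1i and 158 and 162 CPM under DMSO in STINGsg cells, and 102 and 95.1 CPM after MPS1i and 158 and 175 CPM under DMSO in MAVSsg cells. DKO cells had 94.4 and 93.7 CPM after MPS1i and 166 and 179 CPM under DMSO, and in SCR cells 88.9 and 92.9 CPM after MPS1i and 185 and 191 CPM under DMSO. After MPS1i the SCR libraries overlapped those of STINGsg and lay below those of MAVSsg and DKO, and under DMSO they were the highest. The log2 fold changes of KIF11 were -0.91 (STINGsg), -0.76 (MAVSsg), -0.87 (DKO) and -1.05 (SCR).

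KIF23, the motor of the centralspindlin complex, had 72.9 and 72.2 CPM after MPS1i and 116 and 113 CPM under DMSO in STINGsg cells, and 78.1 and 73.3 CPM after MPS1i and 120 and 115 CPM under DMSO in MAVSsg cells. It had 86.9 and 87.4 CPM after MPS1i and 129 and 140 CPM under DMSO in DKO cells, and 65.9 and 67.6 CPM after MPS1i and 126 and 127 CPM under DMSO in SCR cells. After MPS1i the SCR libraries lay below those of every other line. The remaining mitotic members, KIF20B, KIF18A, KIF22, KIF18B and KIF15, had log2 fold changes between -0.53 (KIF22, the chromosome arm motor KID, in STINGsg cells) and -1.01 (KIF15, a motor that helps keep spindles bipolar, in DKO cells).

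**Figure D4:**
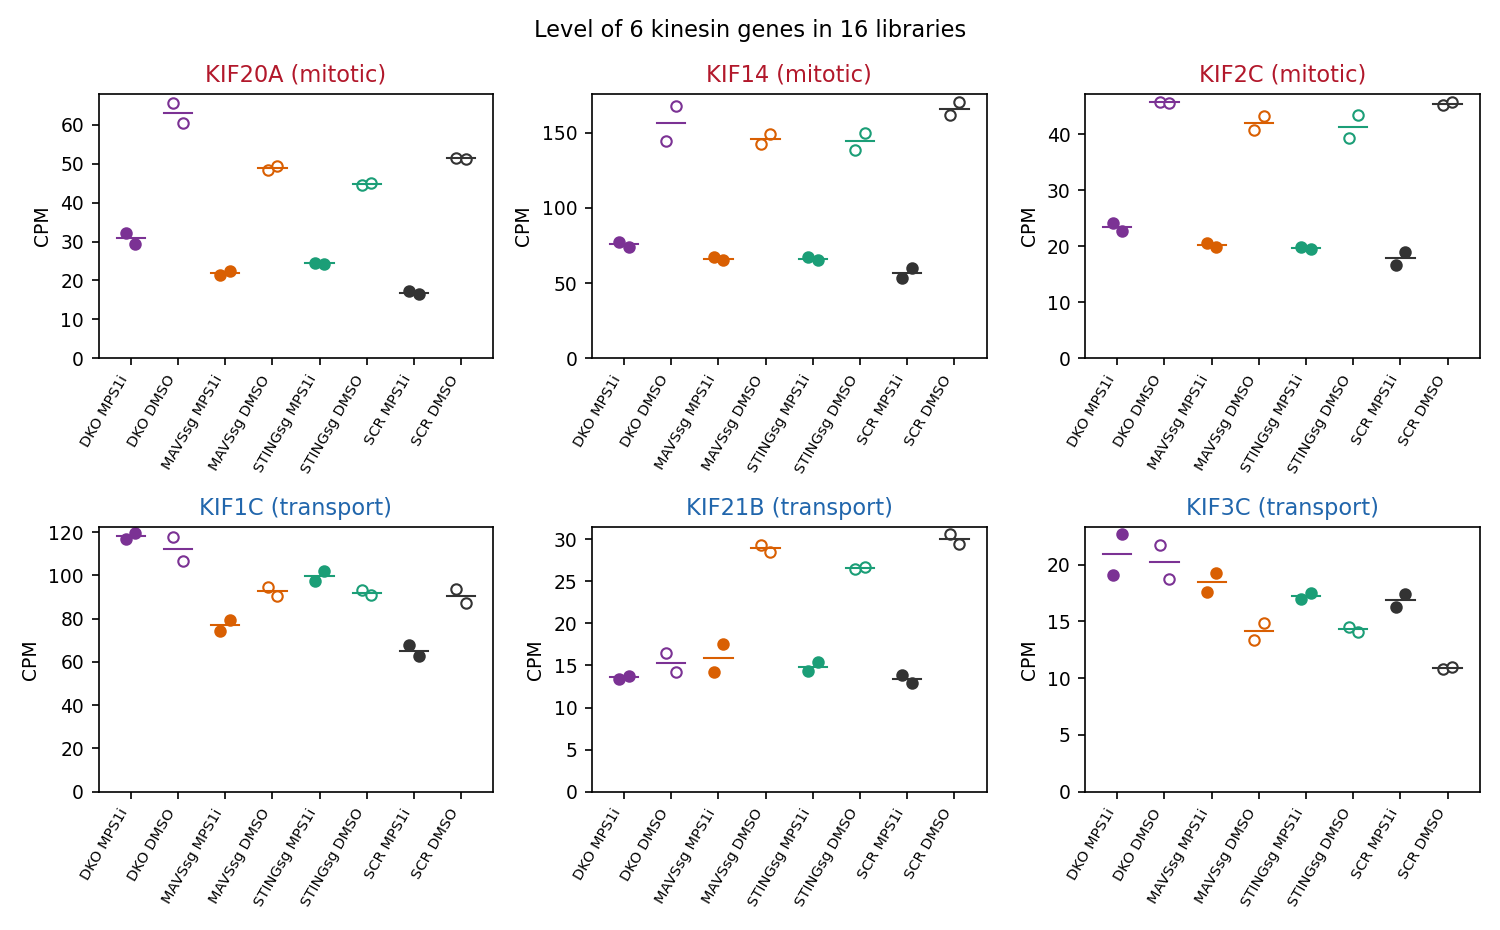
CPM (vertical axes, from 0) of 3 mitotic and 3 transport kinesins in each of the 16 libraries, by line and treatment (filled, MPS1i; open, DMSO), with the mean of each group of 2 libraries (line). KIF20A, KIF14 and KIF2C are lower after MPS1i in every line, KIF1C is lower after MPS1i in MAVSsg and SCR cells, and DKO cells under DMSO already have low KIF21B (14.2 and 16.4 CPM) and high KIF3C (18.7 and 21.7 CPM).

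Among the transport kinesins, KIF21B, a neuronal and immune cell motor that also acts on microtubule growth, had the largest fall. It had 14.3 and 15.4 CPM after MPS1i and 26.4 and 26.7 CPM under DMSO in STINGsg cells, and 14.2 and 17.6 CPM after MPS1i and 29.4 and 28.5 CPM under DMSO in MAVSsg cells. In SCR cells it had 13.8 and 12.9 CPM after MPS1i and 30.6 and 29.4 CPM under DMSO. DKO cells were apart, with 13.4 and 13.7 CPM after MPS1i and 16.4 and 14.2 CPM under DMSO. KIF21B fell by 0.84 in STINGsg, 0.86 in MAVSsg and 1.17 in SCR cells on the log2 scale, and its value of -0.17 in DKO cells was not called (adjusted p = 0.29, edgeR).

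KIF1B, a carrier of mitochondria and vesicles, had 64.1 and 61.8 CPM after MPS1i and 69.6 and 72.3 CPM under DMSO in STINGsg cells, and 59.9 and 59.5 CPM after MPS1i and 72.9 and 76.6 CPM under DMSO in MAVSsg cells. It had 59.9 and 60.1 CPM after MPS1i and 67.9 and 68.6 CPM under DMSO in DKO cells, and 57.0 and 55.9 CPM after MPS1i and 78.8 and 80.9 CPM under DMSO in SCR cells. The log2 fold changes were -0.17 (STINGsg), -0.32 (MAVSsg), -0.19 (DKO) and -0.50 (SCR). The STINGsg call was lost without STINGsg DMSO replicate 2 or MPS1i replicate 2, and the DKO call without DKO DMSO replicate 2 or either DKO MPS1i library and with the compared groups fitted alone.

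KIF5B had 591 and 568 CPM after MPS1i and 626 and 631 CPM under DMSO in STINGsg cells, and 543 and 527 CPM after MPS1i and 630 and 641 CPM under DMSO in MAVSsg cells. DKO cells had 571 and 570 CPM after MPS1i and 558 and 647 CPM under DMSO, which overlapped. In SCR cells it had 517 and 534 CPM after MPS1i and 695 and 715 CPM under DMSO. KIF5B fell by 0.25 in MAVSsg and 0.42 in SCR cells, and its values of -0.12 in STINGsg and -0.08 in DKO cells were not called.

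KIF3B, a subunit of the kinesin-II motor of cilia and vesicles, had 135 and 127 CPM after MPS1i and 139 and 137 CPM under DMSO in STINGsg cells, and 116 CPM in both MPS1i libraries and 134 and 140 CPM under DMSO in MAVSsg cells. It had 129 CPM in both MPS1i libraries and 131 and 136 CPM under DMSO in DKO cells, and 110 and 104 CPM after MPS1i and 142 and 138 CPM under DMSO in SCR cells. KIF3B fell in MAVSsg (-0.24) and SCR cells (-0.38), and was not called in STINGsg (-0.08) or DKO cells (-0.05).

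KIF1C had 97.4 and 102 CPM after MPS1i and 93.1 and 90.9 CPM under DMSO in STINGsg cells, and 74.5 and 79.4 CPM after MPS1i and 94.7 and 90.5 CPM under DMSO in MAVSsg cells. DKO cells had 117 and 120 CPM after MPS1i and 118 and 107 CPM under DMSO, and in SCR cells 67.8 and 62.7 CPM after MPS1i and 93.8 and 87.2 CPM under DMSO. The treated libraries were the lower ones in MAVSsg and SCR cells, and not in STINGsg or DKO cells. KIF1C fell by 0.27 in MAVSsg and 0.47 in SCR cells, and had uncalled values of 0.12 in STINGsg and 0.07 in DKO cells.

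KIF3C, another kinesin-II subunit, was the transport member that rose. It had 17.0 and 17.5 CPM after MPS1i and 14.5 and 14.1 CPM under DMSO in STINGsg cells, and 17.6 and 19.3 CPM after MPS1i and 13.3 and 14.9 CPM under DMSO in MAVSsg cells. In DKO cells it had 19.1 and 22.7 CPM after MPS1i and 21.7 and 18.7 CPM under DMSO, which overlapped, and in SCR cells 16.3 and 17.4 CPM after MPS1i and 10.8 and 11.0 CPM under DMSO. The log2 fold change of KIF3C was 0.27 in STINGsg, 0.39 in MAVSsg, 0.04 (not called) in DKO and 0.63 in SCR cells. The STINGsg call was lost under 4 other settings (relative log expression or upper quartile scaling, no filter, DESeq2) and without any of its 4 libraries, and the MAVSsg call without MAVSsg DMSO replicate 1 or MPS1i replicate 2.

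The other transport calls were smaller. KIF13A, a carrier of recycling endosomes, fell in DKO (-0.17) and SCR cells (-0.22), and KIF13B, a membrane cargo carrier, in DKO (-0.25) and SCR cells (-0.35). KIF16B, a carrier of early endosomes, fell in DKO cells (-0.23) and had an uncalled value of -0.11 in SCR cells. In DKO cells the calls of KIF13A and KIF13B were lost without DKO DMSO replicate 2 or either MPS1i library, and that of KIF16B without MPS1i replicate 2. With the compared groups fitted alone, none of the 4 transport calls in DKO cells held (KIF13A, KIF1B, KIF16B and KIF13B); those of KIF13A and KIF16B were also lost under upper quartile scaling and that of KIF13B under DESeq2. KIF21A, a motor that restrains microtubule growth, had log2 fold changes between -0.17 and -0.02 in all lines.

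Of the remaining members, KIF24, which removes microtubules at the mother centriole, fell by 0.62 in STINGsg, 0.51 in MAVSsg, 0.78 in DKO and 0.66 in SCR cells. KIF2A acts at spindle poles and in interphase and is close in sequence to KIF2C. It had values between -0.11 and 0.02 and was called in no line. Other settings called KIF2A lower in SCR cells: upper quartile scaling (-0.12), no low count filter (-0.14) and the compared groups fitted alone (-0.13). KIF26B, an atypical kinesin of cell adhesion, rose in MAVSsg (1.67) and SCR cells (1.35) at low counts: 1.37 and 1.21 CPM after MPS1i against 0.397 and 0.406 CPM under DMSO in MAVSsg cells, and 1.27 and 1.94 CPM against 0.527 and 0.752 CPM in SCR cells. The SCR call of KIF26B was lost without SCR MPS1i replicate 2. KIF27, a cilium motor, fell (-0.26) and KIF7, of Hedgehog signalling, rose (0.54) in SCR cells, and KIF26A rose in STINGsg cells (0.91), and DESeq2 called none of these 3. The KIF27 call was lost without either SCR DMSO library or SCR MPS1i replicate 2, the KIF7 call without SCR DMSO replicate 2 or SCR MPS1i replicate 1, and the KIF26A call without either STINGsg DMSO library or STINGsg MPS1i replicate 2.

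Genes that work with these motors were counted from lists chosen with earlier results of these data known. Among 17 partners of mitotic kinesins, 16 fell in each of the 4 lines. In SCR cells those with the smallest adjusted p were CIT, the citron kinase bound by KIF14 (-1.64), AURKA (-1.11) and BUB1B (-1.28), and NUMA1 (0.01) was the member not called there. The kinesins whose symbols fall outside the KIF pattern split likewise: the kinetochore motor CENPE (-1.46 in SCR) and the minus-end spindle motor KIFC1 (-0.60 in SCR) fell in all 4 lines, and the others were not called. Of 17 tested light chains and adaptors of transport kinesins, 3 fell and 5 rose in STINGsg and 2 fell and 3 rose in MAVSsg cells. In DKO cells 1 fell and 1 rose, and in SCR cells 5 fell and 5 rose. Of all tested genes, 13.9% fell and 15.5% rose in STINGsg and 16.3% and 17.1% in MAVSsg cells. The shares were 8.22% and 6.53% in DKO and 24% and 26% in SCR cells. The light chain and adaptor counts were near these shares in MAVSsg, DKO and SCR cells. The mitochondrial adaptor TRAK2 (-1.51) and the lysosome adaptor subunit BORCS5 (-1.19), which fell, and the light chain KLC2 (0.31), which rose, had the smallest adjusted p in SCR cells. Among 12 components and subunits that control G2 and M genes, 7 fell and 1 rose in STINGsg, 6 fell in MAVSsg, 7 fell in DKO, and 6 fell and 1 rose in SCR cells, with FOXM1 (-0.74), RBL2 (-0.47) and LIN54 (-0.45) those of smallest adjusted p in SCR.

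The second comparison asked whether the response to MPS1i differed between each knockout line and SCR cells. The difference is the log2 fold change in the knockout line minus that in SCR cells, tested as an interaction term, and a positive value of a falling gene means a smaller fall in the knockout line. The 3 tests share the SCR libraries. The difference was called above 0 in 9.97% and below 0 in 9.55% of tested genes for STINGsg, in 2.92% and 4.52% for MAVSsg, and in 13.5% and 14.5% for DKO. Of the mitotic kinesins, 4 of 11 were called for each line, all above 0. Of the transport kinesins, 5 of 12 were called above 0 for STINGsg, none for MAVSsg, and 5 above and 1 below 0 for DKO. For MAVSsg, 5 transport kinesins had an unadjusted p under 0.05, all above 0, and DESeq2 called 0. None of the 7 others was called for any line by edgeR or by DESeq2; at an unadjusted p under 0.05 the only ones were 2 below 0 for DKO.

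KIF20A and KIF14 were called for all 3 lines. The difference of KIF20A was 0.74 ± 0.095 for STINGsg, 0.46 ± 0.094 for MAVSsg and 0.59 ± 0.093 for DKO (± standard error; edgeR adjusted p 2.8e-06, 0.0017 and 1.9e-05 in that order). KIF14 gave 0.42, 0.41 and 0.51 for the same lines, and KIF23 0.27, 0.29 and 0.30. Of these, the KIF23 call for STINGsg was lost without STINGsg DMSO replicate 2, and that for MAVSsg without MAVSsg DMSO replicate 2 or MAVSsg MPS1i replicate 1. KIF4A was called for STINGsg (0.37), KIF2C for DKO (0.38) and KIF11 for MAVSsg (0.29), the last lost without SCR DMSO replicate 2 or replicate 1 of SCR MPS1i, MAVSsg DMSO or MAVSsg MPS1i. The other 5 mitotic kinesins had differences between -0.14 and 0.27 and were called for no line.

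All transport kinesins with a called difference had fallen in SCR cells except KIF3C, which had risen there. KIF1C gave 0.59 for STINGsg, 0.21 (not called) for MAVSsg and 0.55 for DKO. KIF5B gave 0.30, 0.18 (not called) and 0.34 for the same lines, KIF3B 0.31, 0.15 (not called) and 0.33, and KIF1B 0.33, 0.18 (not called) and 0.31. KIF13A was called for STINGsg (0.29), a call lost without SCR MPS1i replicate 2. The DKO line also differed for KIF21B (1.00 ± 0.13, edgeR adjusted p = 1.6e-06) and for KIF3C (-0.59 ± 0.13, edgeR adjusted p = 0.0014). Under DMSO, KIF21B was at 15.3 CPM in DKO cells and 30.001 CPM in SCR cells, and KIF3C at 20.2 CPM in DKO cells and 10.9 CPM in SCR cells (means of 2 libraries).

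**Figure D5:**
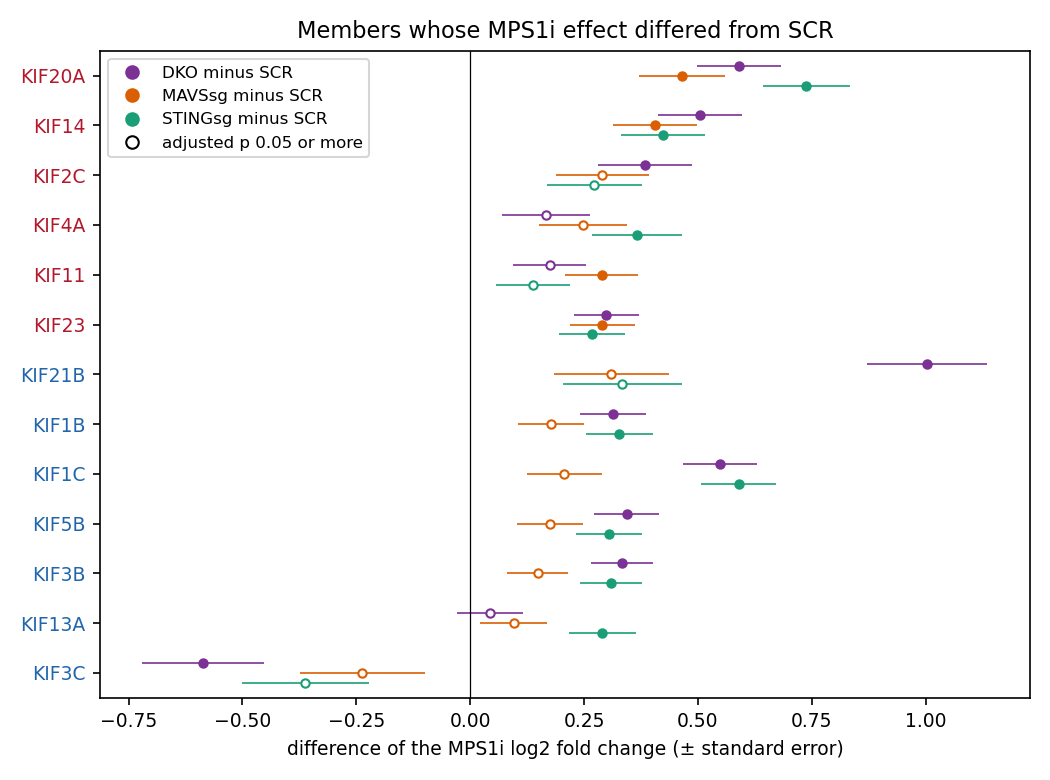
Difference of the MPS1i log2 fold change between each knockout line and SCR cells (horizontal axis, bars ± standard error) for the 13 kinesins called in at least one line, in DKO (purple), MAVSsg (orange) and STINGsg (green); open circles have an adjusted p of 0.05 or more. Every filled circle lies right of 0 except KIF3C in DKO at -0.59, and KIF21B in DKO lies farthest right at 1.00.

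The third comparison set the lines side by side under the same treatment. Under DMSO, 5.47% of tested genes were lower and 4.7% higher in STINGsg than in SCR cells, 2.57% lower and 3.98% higher in MAVSsg, and 15.3% lower and 15.8% higher in DKO cells. In STINGsg cells 3 mitotic (KIF11, KIF14 and KIF20A) and 3 transport kinesins (KIF5B, KIF21A and KIF1B) were lower (log2 differences of -0.23 to -0.16) and KIF3C was higher (0.39). These 7 calls were fragile: leaving out any library compared left 0 to 3, and upper quartile scaling left 3. In MAVSsg cells KIF3C was called (0.37), a call lost without any of the 4 libraries compared and under DESeq2, while 6 members were called without the low count filter and 5 when the compared groups were fitted alone. In DKO cells 9 of 12 transport kinesins differed, against 1 of 11 mitotic (KIF20A, 0.29) and 1 of 7 others (KIF26A, 1.27). KIF3C (0.88), KIF5A (1.45), KIF3A (0.38), KIF1C (0.31) and KIF13A (0.21) were higher in DKO cells, and KIF21B (-0.98), KIF1B (-0.23), KIF5B (-0.22) and KIF21A (-0.18) were lower. The KIF21A call was lost without SCR DMSO replicate 2 or DKO DMSO replicate 1 and with the compared groups fitted alone, the KIF3A call without DKO DMSO replicate 2 and the KIF5A call without SCR DMSO replicate 2.

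After MPS1i, 17.3% of tested genes were lower and 15.8% higher in STINGsg than in SCR cells, 8.47% lower and 7.46% higher in MAVSsg, and 22.4% lower and 22.6% higher in DKO cells. Mitotic kinesins were higher in 2 and lower in 1 of 11 in STINGsg, higher in 3 in MAVSsg, and higher in 5 and lower in 1 in DKO cells. KIF20A was higher than in SCR cells in all 3 lines (0.54 in STINGsg, 0.39 in MAVSsg, 0.88 in DKO), as was KIF14 (0.22, 0.22 and 0.42 for the same lines), although the KIF14 call of STINGsg was lost without SCR MPS1i replicate 1 or STINGsg MPS1i replicate 1 and that of MAVSsg without SCR MPS1i replicate 1 or either MAVSsg MPS1i library. KIF20B was lower in STINGsg (-0.26) and KIF15 lower in DKO cells (-0.28). Transport kinesins were higher in 7 and lower in 1 of 12 in STINGsg, higher in 2 and lower in 1 in MAVSsg, and higher in 6 and lower in 1 in DKO cells. KIF1C was higher in all 3 lines (0.61 in STINGsg, 0.24 in MAVSsg and 0.86 in DKO), and KIF21A was lower in all 3 (-0.30, -0.19 and -0.33). The 7 others gave 1 lower in STINGsg (KIF26B, -1.18), none in MAVSsg by edgeR at either threshold or by DESeq2, and 1 higher (KIF2A, 0.14) and 1 lower (KIF26B, -1.13) in DKO cells. The KIF15 call in DKO cells was lost without any of the 4 libraries compared, and the KIF20B call in STINGsg cells without replicate 2 of either line. The MAVSsg call of KIF1C was lost without replicate 2 of either line, that of KIF21A without SCR MPS1i replicate 2 or either MAVSsg MPS1i library, and both KIF26B calls without SCR MPS1i replicate 2 or replicate 1 of the knockout line. The KIF2A call in DKO cells was lost without either SCR MPS1i library or DKO MPS1i replicate 2. DESeq2 called neither KIF2A nor KIF26B nor KIF15 there, nor KIF26B in STINGsg cells, and upper quartile scaling also lost KIF15. The STINGsg calls of KIF5B, KIF13A, KIF1B, KIF13B and KIF3A were each lost with some library left out. So were the MAVSsg calls of KIF13B and the mitotic KIF23, and the DKO calls of KIF3C and KIF5A. Both DESeq2 and the fit without a low count filter lost KIF13B in STINGsg and KIF5A in DKO cells. That fit also lost KIF1B in STINGsg cells. With a library left out, 5 to 11 members were called for STINGsg, against 12 with all libraries, and 2 to 4 for MAVSsg, against 6.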

How the data were processed

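Poly(A) RNA of 16 NCI-H1944 libraries was converted with a stranded kit and sequenced, per the labels' protocols. The authors deposited raw read counts per gene; the submitters' processing notes name Trim Galore, Trimmomatic, cutadapt, STAR, featureCounts and the build GRCh38 (hg38), and the versions, counted feature and strand setting are not given in the sources used here. Reads of overlapping genes on opposite strands, and of near-identical copies, therefore cannot be told apart. The deposited length column equals the gene span in all 60612 rows, so levels per kilobase used merged exons of GENCODE 29.

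Counts were tested with edgeR 4.0.16 in R 4.3.3: TMM scaling, filterByExpr (count minimum 10, total 15; 17950 genes kept, at least 99.93% of each library's counts), 8 group means over 16 libraries, 8 residual degrees of freedom, robust quasi-likelihood F-tests of 13 contrasts and Benjamini-Hochberg adjustment over all tested genes, called at 0.05. Standard errors were the log2 fold change over the square root of F. Counts were simulated for the MPS1i effect in SCR cells (17298 genes). Of genes with a true fold of 2 or of 0.5, 83.7% were called. Of genes raised to a fold of 1.5, 70% were called, and of genes lowered to 0.667, 62%. Of unchanged genes, 0.0819% were called. The members, classes and lists were chosen with earlier results of these data known. Values in every library are given for the 4 mitotic and 4 transport members with the smallest adjusted p in SCR cells, up to 4 per difference of effect, 2 per genotype contrast under DMSO, and members called against their class; KIF24 and KIF26B were described further after their values were seen. No replicate pair agreed within sampling noise (chi-square per gene 2.8 to 9.44). Alternatives were other scalings, filters, DESeq2 1.42.0, fits of the compared groups alone, a replicate block, and each library left out. Of the cell type markers, 1 gene is not reported here.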

Additional observations from a re-analysis of the deposited data

Results flagged for a closer look

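In the results below the response to MPS1i differed between a knockout line and SCR cells in a test of the difference itself (edgeR interaction term, adjusted over all tested genes). Values are log2 fold changes in the knockout line minus those in SCR cells, and all 3 sets share the SCR libraries. With 2 libraries a group, outlying libraries were not looked for.

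For STINGsg, the mitotic kinesins KIF20A (0.74), KIF14 (0.42), KIF4A (0.37) and KIF23 (0.27) and the transport kinesins KIF1C (0.59), KIF1B (0.33), KIF3B (0.31), KIF5B (0.30) and KIF13A (0.29) differed. All of these had fallen in SCR cells. For MAVSsg, the mitotic kinesins KIF20A (0.46), KIF14 (0.41), KIF23 (0.29) and KIF11 (0.29) differed. There 5 transport kinesins had an unadjusted edgeR p under 0.05, all above 0. The KIF23 and KIF11 calls for MAVSsg, and the KIF23 and KIF13A calls for STINGsg, were lost with some library left out. For DKO, the mitotic kinesins KIF20A (0.59), KIF14 (0.51), KIF2C (0.38) and KIF23 (0.30) and the transport kinesins KIF21B (1.00), KIF1C (0.55), KIF5B (0.34), KIF3B (0.33) and KIF1B (0.31) differed above 0, and KIF3C (-0.59) below 0.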

How the results depend on the processing

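Over 4624 values of single members under the alternatives, 4400 stayed on their side of the threshold, 142 calls were lost and 82 were gained. Calls that turned from higher to lower or the reverse numbered 0, and the signs of uncalled values were not counted. Leaving out a library gave 110 of the losses. Under no scaling, filter or tool was the median over genes of the shift in log2 fold change larger than 0.0708 in size. In DKO cells 16 members were called after MPS1i, and 12 with the compared groups alone. Members called in STINGsg against SCR under DMSO numbered 7, with 3 under upper quartile scaling and 0 to 3 with a library left out. For MAVSsg under DMSO 1 was called, with 6 without a filter, 2 with the filter at 1 CPM, 5 with the compared groups alone and 0 to 2 with a library left out. After MPS1i, a library left out gave 5 to 11 for STINGsg (12 in all libraries) and 2 to 4 for MAVSsg (6).

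The median of the mitotic kinesins in SCR cells, -0.94, was -0.95 under relative log expression scaling, under upper quartile scaling and under DESeq2, -0.97 without a filter and with the compared groups alone, -0.93 with the filter at 1 CPM and with KIF2A counted as mitotic, and -1.01 to -0.95 with a library left out. Leaving out a library gave -0.912 to -0.854 in STINGsg (-0.852 with KIF2A as mitotic), -0.86 to -0.70 in MAVSsg and -0.96 to -0.82 in DKO cells. The transport median with a library left out was -0.127 to -0.0481 in STINGsg, -0.21 to -0.10 in MAVSsg, -0.19 to -0.10 in DKO and -0.39 to -0.26 in SCR cells. It was -0.34 in SCR cells with the filter at 1 CPM, -0.13 in DKO cells under upper quartile scaling, and, without KIF21A and KIF21B, -0.13 in DKO and -0.000879 in STINGsg cells. The cause of these shifts was not tested.

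With at least 0.5 CPM asked in each group, 28 members remained, without KIF5A and KIF26B. Libraries with the same replicate number showed little shared deviation (correlation -0.08 to 0.14 over 28 pairs of groups). The labels do not say whether they were paired. A replicate block left 23 members called in SCR, 16 in STINGsg, 19 in MAVSsg and 16 in DKO cells, as without it, and gained 2 calls elsewhere. The low members KIF26B and KIF5A had standard errors of 0.33 to 0.45, and the part of counting depth in these was not tested.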

Other observations

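Tubulins are the subunits of the tracks on which kinesins move. Of 11 tested, 8 rose in STINGsg, 6 in MAVSsg, 1 in DKO and 9 in SCR cells after MPS1i, where 15.5%, 17.1%, 6.53% and 26% of all tested genes rose in the same order of lines. In DKO cells TUBA1B fell (-0.28), 9 were not called and the median was 0.03. Those with the smallest adjusted p in SCR cells were TUBB6 (0.85), TUBB4B (0.73) and TUBB2A (1.20). Relative to SCR cells, the response was lower for 6 of 11 tubulins in STINGsg, 3 in MAVSsg and 8 in DKO cells by the test of the difference, against 9.55%, 4.52% and 14.5% of all tested genes. Under DMSO, 6 of 11 tubulins were higher in DKO than in SCR cells (median 0.26), against 15.8% of all tested genes. TUBB6 differed by -0.58 in STINGsg, -0.47 in MAVSsg and -0.84 in DKO cells.

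Cytoplasmic dynein runs opposite to most kinesins. Of its 21 subunits and regulators, 4 fell and 4 rose in STINGsg, 4 fell and 2 rose in MAVSsg, 1 fell and 2 rose in DKO, and 6 fell and 7 rose in SCR cells. Of all tested genes, 13.9% fell and 15.5% rose in STINGsg, 16.3% and 17.1% in MAVSsg, 8.22% and 6.53% in DKO, and 24% and 26% in SCR cells. The dynein regulators PAFAH1B1 (-0.50) and NDE1 (-0.58) and the heavy chain DYNC1H1 (0.26) had the smallest adjusted p in SCR cells. NDE1 fell and DYNC1H1 rose in all 4 lines. Near-identical tubulin genes can share reads, so their single values are uncertain.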
